A study of Mus musculus with 9 samples.

Results

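The 34 genes described here encode the antioxidant defence linked to the transcription factor NRF2, together with the enzymes that make and recycle glutathione, the thioredoxin and peroxiredoxin system, the pentose phosphate pathway that supplies NADPH, and 3 subunits of the phagocyte NADPH oxidase that consumes it. They were chosen by gene symbol for these roles, out of 46095 symbols in the count table. All 34 were listed and all 34 passed the filter on low counts, which kept 14026 symbols for testing.

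RNA was sequenced from BMDMs, bone marrow-derived macrophages, which are cultured from the marrow of mice. The 9 libraries fell into 3 groups of 3: macrophages treated with LPS plus BHB, macrophages treated with LPS, and control macrophages. Every group was wild type, of the Balb/c strain, with an age of 6 weeks in the labels. The labels spell out neither treatment and give neither a dose nor a duration. LPS usually stands for lipopolysaccharide, the bacterial cell wall component sensed by Toll-like receptor 4, and BHB usually stands for beta-hydroxybutyrate, a ketone body. No library held BHB without LPS, so an action of BHB by itself and an action on the LPS response cannot be told apart. Whether replicates came from separate animals or cultures is not stated, and the p-values therefore measure the spread between these libraries, which may be technical.

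NRF2 is held in the cytoplasm and sent for degradation by KEAP1. When electrophiles or oxidants modify KEAP1, NRF2 escapes, pairs with small MAF proteins and binds antioxidant response elements in the promoters of genes for glutathione synthesis, thioredoxin reduction, NADPH supply and heme breakdown. Glutathione and thioredoxin both draw their electrons from NADPH, and in macrophages the same NADPH feeds the oxidase that makes superoxide during the attack on microbes.

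Library totals ran from 29633411 to 32798920 counts, so that counting error was small for every gene except those with few counts, here Nqo1 and Me1. Levels are given as CPM, counts relative to the library total after TMM scaling, and each change is a log2 fold change with its SE from edgeR's quasi-likelihood test, called at a Benjamini-Hochberg adjusted p under 0.05 over all 14026 genes. The cells carried counts of all 8 macrophage markers examined in every group, with summed levels of 9229 to 9641 CPM with LPS plus BHB, 7619.6 to 8781 CPM with LPS and 18799 to 22117 CPM in control. Of the 8, 1 was higher and 7 lower with LPS than in control, and 4 were higher and 2 lower with LPS plus BHB than with LPS. The part of this shift in the changes of the 34 genes was not tested. Summed markers of other cells reached at most 6.68 CPM for neutrophils and their precursors, 0.35 CPM for lymphocytes, 10.1 CPM for stromal cells and 2.1 CPM for erythroid cells and megakaryocytes. Few of these markers had enough counts to test, and some of them moved too. Of 3 neutrophil and precursor markers tested, 2 (S100a8 and Ngp) were higher with LPS plus BHB than with LPS, with a summed level over all 8 of 4.83 to 6.68 CPM with LPS plus BHB, 2.06 to 3.26 CPM with LPS and 4.82 to 5.41 CPM in control. Of 2 erythroid and megakaryocyte markers tested, both (Pf4 and Itga2b) were higher by at least 2-fold, with a sum over all 8 of 1.48 to 2.1 CPM with LPS plus BHB, 0.396 to 0.839 CPM with LPS and 1.02 to 1.35 CPM in control. None of the 5 stromal markers passed in any comparison. The part of these cells in the results was not tested. In bulk RNA, fewer cells of a type and less RNA per cell cannot be told apart. The control libraries were not alike in genes that LPS induces: Il12b had 0, 223 and 213 counts, Acod1 24, 1739 and 1808, and Il6 4, 65 and 73 in control replicates 1, 2 and 3. Each result against control was therefore also computed with control replicate 1 alone, and values that ended a call or turned a direction are given with the gene or among the limits.

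Promoter windows of 300 bases, with 250 bases before and 50 after an annotated start, were found for 30 of the 34 genes in the RefSeq table of GRCm38.p6. Some genes had several windows, such as Txnrd1 with 3 and Gpx4 with 4, and a match in any of them counted. The remaining 4 were Hmox1, Gclc, Gsr and Prdx6. The core of the antioxidant response element, TGACNNNGC searched on both strands, stood in the windows of 10 of these 30 genes (33.3%), against 14% of 27025 genes with a window. The 10 were Nfe2l2, Gclm, Txnrd1, Srxn1, Prdx1, Sod1, G6pdx, Pgd, Me1 and Mgst1. The AP-1 site TGANTCA, whose letters overlap those of the antioxidant core in Me1 and Prdx1, stood in 4 of the 30 (13.3%, against 8.97% of all genes): Srxn1, Prdx1, Me1 and Cybb. The kappa B consensus stood in 2 of the 30 (6.67%, against 5.14%), Prdx1 and Sod2, and the hypoxia response core ACGTG in 7 of the 30 (23.3%, against 21.8%). A match describes the letters of the window and does not show that a factor binds there.

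Windows of 5 genes that hold a match are shown: Txnrd1, Srxn1 and Prdx1 in the thioredoxin system, G6pdx at the head of the pentose phosphate pathway, and Sod2 among the superoxide dismutases. Ncf1 and Nqo1 had the largest rise and fall with LPS plus BHB against LPS, and Slc7a11 the largest rise with LPS. Their windows held no match to any motif searched. The windows shown run 5′ to 3′ on the strand of the gene. Capitals mark the antioxidant response core in Txnrd1 (chr10:82858956-82859255, plus strand, starting −92 from the window's annotated start), in Prdx1 (chr4:116685349-116685648, plus strand, −133) and in G6pdx (chrX:74428831-74429130, minus strand, −57). In all 3 the core reads on the opposite strand. In Srxn1 (chr2:152105274-152105573, plus strand) capitals mark the AP-1 letters, present at 2 places. Its antioxidant core lies at 28, after the start. In Sod2 (chr17:13007589-13007888, plus strand) capitals mark the kappa B consensus at −83. Txnrd1 had 3 windows, and that shown lies inside the gene, which begins at chr10:82833951. The Sod2 window also lies after the first base of its gene, at chr17:13006846.
Txnrd1: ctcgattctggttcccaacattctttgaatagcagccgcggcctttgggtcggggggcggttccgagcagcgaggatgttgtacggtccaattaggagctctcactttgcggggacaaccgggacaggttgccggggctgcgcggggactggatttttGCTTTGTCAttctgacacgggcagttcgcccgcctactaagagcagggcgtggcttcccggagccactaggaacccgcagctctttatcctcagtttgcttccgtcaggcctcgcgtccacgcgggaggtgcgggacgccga
Srxn1: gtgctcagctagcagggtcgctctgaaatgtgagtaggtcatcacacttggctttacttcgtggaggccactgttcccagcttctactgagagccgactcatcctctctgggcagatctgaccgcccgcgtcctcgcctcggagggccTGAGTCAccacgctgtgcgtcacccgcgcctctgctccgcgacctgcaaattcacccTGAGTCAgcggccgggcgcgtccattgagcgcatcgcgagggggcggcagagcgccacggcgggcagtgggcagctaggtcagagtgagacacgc
Prdx1: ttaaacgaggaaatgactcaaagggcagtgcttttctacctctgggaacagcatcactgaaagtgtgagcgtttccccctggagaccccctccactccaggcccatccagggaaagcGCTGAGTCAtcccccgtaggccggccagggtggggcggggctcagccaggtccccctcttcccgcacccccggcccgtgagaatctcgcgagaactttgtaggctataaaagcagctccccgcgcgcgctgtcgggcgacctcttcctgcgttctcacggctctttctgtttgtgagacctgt
G6pdx: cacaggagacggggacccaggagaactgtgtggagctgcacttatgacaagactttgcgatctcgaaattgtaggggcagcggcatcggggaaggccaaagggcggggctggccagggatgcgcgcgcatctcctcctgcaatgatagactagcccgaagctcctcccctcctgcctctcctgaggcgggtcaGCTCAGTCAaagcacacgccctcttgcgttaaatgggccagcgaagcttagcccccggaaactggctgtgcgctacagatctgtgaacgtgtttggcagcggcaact
Sod2: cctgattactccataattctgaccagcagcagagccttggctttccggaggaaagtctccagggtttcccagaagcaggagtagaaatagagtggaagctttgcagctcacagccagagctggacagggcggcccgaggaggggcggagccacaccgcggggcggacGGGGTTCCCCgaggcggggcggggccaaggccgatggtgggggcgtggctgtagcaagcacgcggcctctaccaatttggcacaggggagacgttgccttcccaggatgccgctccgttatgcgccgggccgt

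With LPS plus BHB against LPS, 15 of the 34 genes were higher and 11 lower, and 8 did not pass the test. The called share, 76.5%, stood beside 50.7% of all 14026 genes tested, of which 26.4% were higher and 24.4% lower. The changes were mostly modest: the median over the 34 genes was a log2 fold change of 0.07, against 0.01 over all genes, and only Ncf1 rose and only Nqo1 fell by at least 2-fold, where 7.89% of all genes rose and 3.36% fell that far. The 2 groups did not overlap in 26 of the 34 genes, a share that was 56.7% over all genes.

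With LPS against control, 11 of the 34 genes were higher, 15 were lower and 8 did not pass. The called share was again 76.5%, close to the 79.8% of all genes called in this comparison (38.4% higher and 41.4% lower), so that the number of calls does not set these genes apart. Sizes were larger here, with 5 genes higher and 9 lower by at least 2-fold, where 18.7% and 26.3% of all genes were, and the groups did not overlap in 28 genes (82.7% of all genes). With LPS plus BHB against control, 9 were higher, 20 lower and 5 did not pass (85.3% called, against 78.4% of all genes, 38.0% higher and 40.4% lower), and the groups did not overlap in 27 genes (80.2% of all genes). The 3 comparisons share libraries with each other and are not independent of each other. Against control the balance of directions depends on the scaling: with library totals alone 8 genes were higher and 22 lower with LPS, and 7 higher and 24 lower with LPS plus BHB, while of all called genes 37.7% in place of 48.2%, and 34.7% in place of 48.5%, were higher. That scaling moved the median of all genes by −0.27 and −0.33 on the log2 scale in these 2 comparisons, and by −0.05 in LPS plus BHB against LPS. All changes given are relative to the TMM scaling. With control replicate 1 alone, 10 genes were higher and 15 lower with LPS, and 10 higher and 15 lower with LPS plus BHB.

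**Figure D1:**
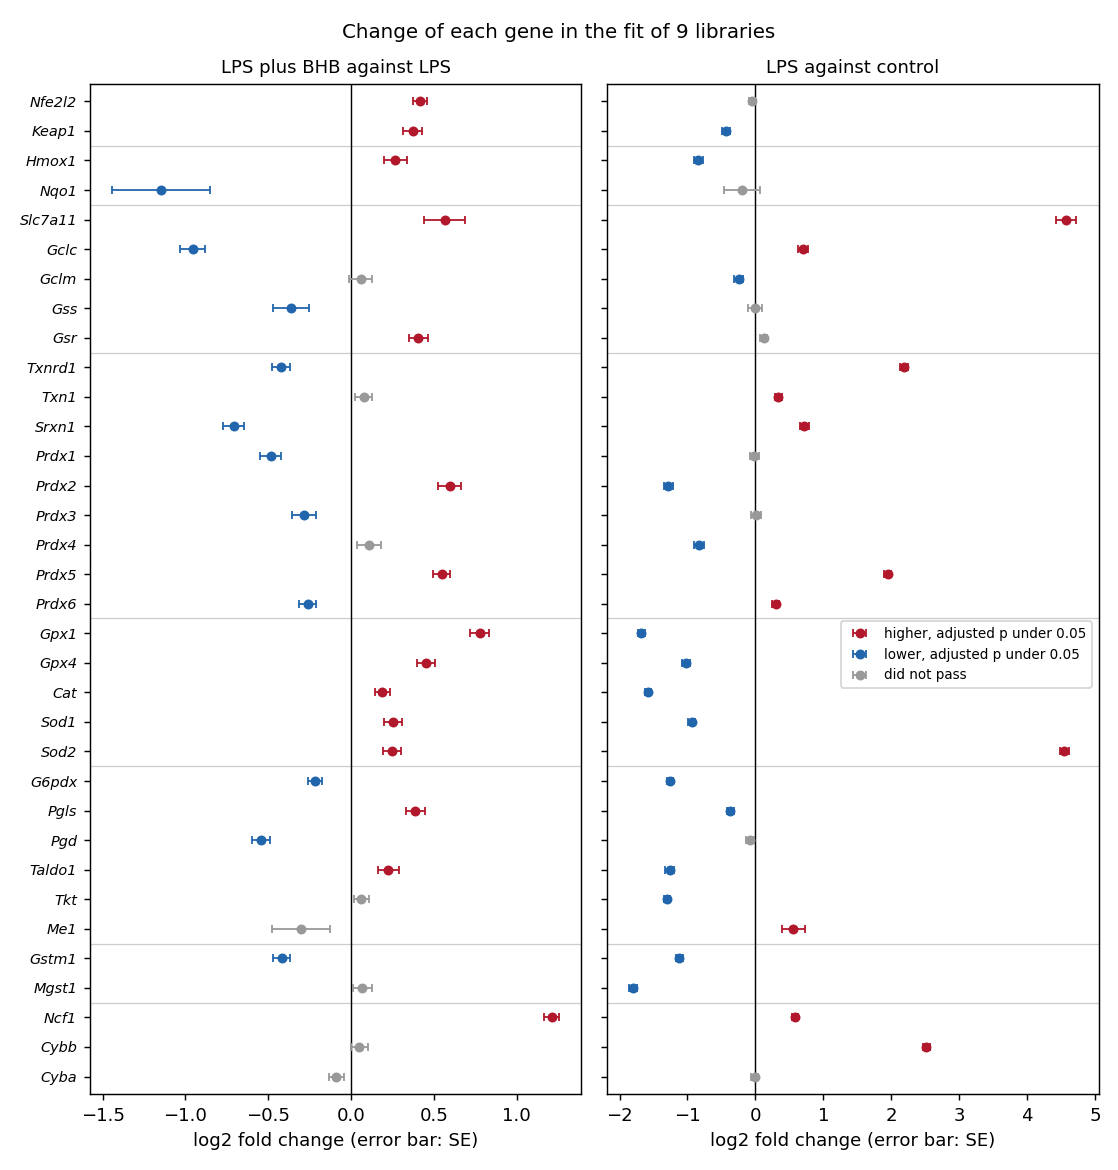
Log2 fold change of each of the 34 genes with its SE (bars), with LPS plus BHB against LPS on the left and LPS against control on the right, grouped by role; the horizontal scales differ. On the left 15 genes are higher and 11 lower, from −1.15 for Nqo1 to 1.21 for Ncf1, and on the right Slc7a11 and Sod2 stand highest at 4.58 and 4.55.

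The transcripts of both regulators were higher with LPS plus BHB than with LPS. Nfe2l2 (chr2:75675513-75704641 in GRCm38), which encodes NRF2 itself, had 373, 401 and 392 CPM in the LPS plus BHB libraries, 296, 284 and 294 CPM in the LPS libraries and 292, 304 and 310.3 CPM in the control libraries. All 3 LPS plus BHB values lay above all others, while the LPS and control values overlapped. The rise over LPS was 1.33-fold (log2 fold change 0.42 ± 0.04, adjusted p = 6.69e-08). The change with LPS against control did not pass (log2 fold change −0.05, adjusted p = 0.269). With library totals alone it did (log2 fold change −0.33, adjusted p = 5.79e-07), and with control replicate 1 alone its sign turned, at 0.0018. Nfe2l2 was also higher with LPS plus BHB than in control (log2 fold change 0.36, adjusted p = 1.33e-07), a call that was lost with library totals alone (log2 fold change 0.04, adjusted p = 0.409).

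Keap1, whose product targets NRF2 for degradation, had 63.6, 69 and 61.7 CPM in the LPS plus BHB libraries, 52.3, 49.6 and 48.3 CPM in the LPS libraries and 69.3, 68.7 and 65.3 CPM in the control libraries. The LPS libraries were the lowest, and the LPS plus BHB and control libraries overlapped. Keap1 fell with LPS (log2 fold change −0.44 ± 0.06, adjusted p = 4.75e-07), was higher with LPS plus BHB than with LPS (log2 fold change 0.37 ± 0.06, adjusted p = 1.35e-05), and did not pass with LPS plus BHB against control (log2 fold change −0.07, adjusted p = 0.289); with library totals alone it was lower there (log2 fold change −0.39, adjusted p = 1.57e-06). An antisense gene, Gm16754, covers 10.87% of the exonic length of Keap1. The ratio of Nfe2l2 to Keap1 counts within a library was 5.87, 5.81 and 6.36 with LPS plus BHB, 5.67, 5.74 and 6.08 with LPS and 4.22, 4.43 and 4.75 in control, and the treated groups overlapped.

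The classical NRF2 targets of heme and quinone metabolism did not move together. Hmox1 (chr8:75093621-75100589), the inducible heme oxygenase that opens the heme ring, had 266, 276 and 216 CPM in the LPS plus BHB libraries, 206, 206 and 218 CPM in the LPS libraries and 372, 386 and 369 CPM in the control libraries. The control libraries were the highest throughout. LPS plus BHB replicate 3 lay within the LPS range, and the other 2 LPS plus BHB libraries lay above it. Hmox1 fell with LPS (log2 fold change −0.84 ± 0.07, adjusted p = 4.90e-08) and was higher with LPS plus BHB than with LPS by 1.2-fold (log2 fold change 0.27 ± 0.07, adjusted p = 0.00593). Leaving out LPS plus BHB replicate 2 gave 0.20 (adjusted p = 0.0221) and leaving out its replicate 3 gave 0.37 (adjusted p = 2.66e-07), both as log2 fold changes. With LPS plus BHB it was below control (log2 fold change −0.57, adjusted p = 3.50e-06).

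Nqo1, the quinone reductase often used as a readout of NRF2, had few counts. There were 26, 20 and 22 counts with LPS plus BHB, 52, 51 and 49 with LPS and 74, 57 and 86 in control, or 0.882, 0.695 and 0.776 CPM with LPS plus BHB, 1.71, 1.78 and 1.73 CPM with LPS and 2.08, 1.53 and 2.37 CPM in control. The LPS plus BHB values were below all others, and control replicate 2 lay below the LPS libraries. Nqo1 fell with LPS plus BHB against LPS (log2 fold change −1.15 ± 0.29, adjusted p = 0.00256) and against control (log2 fold change −1.34, adjusted p = 2.68e-04), and did not pass with LPS against control (log2 fold change −0.19, adjusted p = 0.513). Per kilobase of exon it was the lowest of the 34 genes with LPS plus BHB, at 0.51 CPM per kb.

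Genes of glutathione synthesis went in both directions. Slc7a11 (chr3:49892526-50443614), the light chain of the cystine transporter that brings in the sulphur amino acid for glutathione, had the largest rise of the 34 genes with LPS, close to that of Sod2. It had 934, 1032 and 790.2 CPM in the LPS plus BHB libraries, 623, 596 and 645 CPM in the LPS libraries and 23, 24.1 and 30.9 CPM in the control libraries. No control library came near the treated ones, and every LPS plus BHB library lay above every LPS library. The rise with LPS over control was 23.9-fold (log2 fold change 4.58 ± 0.15, adjusted p = 1.15e-08), and with LPS plus BHB over LPS it was 1.48-fold (log2 fold change 0.56 ± 0.12, adjusted p = 0.00542).

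Gclc (chr9:77754535-77794485), the catalytic subunit of glutamate-cysteine ligase, which carries out the rate-limiting step, moved the other way between the 2 treated groups. It had 49.99, 52.8 and 44 CPM in the LPS plus BHB libraries, 92.9, 97.3 and 94.8 CPM in the LPS libraries and 52.3, 57.3 and 65.2 CPM in the control libraries. The LPS libraries stood apart above the rest, and the LPS plus BHB and control ranges overlapped. Gclc rose with LPS (log2 fold change 0.70 ± 0.07, adjusted p = 6.54e-08) and was 1.94-fold lower with LPS plus BHB than with LPS (log2 fold change −0.96 ± 0.07, adjusted p = 5.52e-09). Against control the LPS plus BHB log2 fold change was −0.25 (adjusted p = 0.00547); with control replicate 1 alone it was −0.09 (adjusted p = 0.383), and without control replicate 3 it was −0.16 on the log2 scale.

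Gclm, the modifier subunit that raises the activity of Gclc, did not follow it. Its levels were 61.7 to 71.8 CPM with LPS plus BHB, 58.7 to 69.8 CPM with LPS and 72.5 to 76.1 CPM in control, with LPS plus BHB and LPS overlapping. The change with LPS plus BHB against LPS was log2 fold change 0.06, adjusted p = 0.499, with a 95% interval of −0.08 to 0.20. Gclm was lower with LPS than in control (log2 fold change −0.25, adjusted p = 0.00264) and with LPS plus BHB than in control (log2 fold change −0.19, adjusted p = 0.017), the last of which did not pass without LPS plus BHB replicate 1 (log2 fold change −0.14, adjusted p = 0.104), LPS plus BHB replicate 3 (log2 fold change −0.15, adjusted p = 0.0678) or control replicate 1 (log2 fold change −0.17, adjusted p = 0.0529), or with control replicate 1 alone (log2 fold change −0.21, adjusted p = 0.0681). In counts within a library, Gclc stood to Gclm at 0.811, 0.736 and 0.702 with LPS plus BHB, at 1.55, 1.66 and 1.36 with LPS and at 0.687, 0.766 and 0.9 in control.

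Downstream comes Gss, the synthetase that adds glycine, whose exons overlap Acss2, Gssos1 and Gssos2 on the other strand over 15.44% of their length. Acss2 ran at 0.78 to 1.02 CPM with LPS plus BHB, 0.52 to 1.84 CPM with LPS and 13.6 to 15.4 CPM in control. The part of Acss2 reads in Gss was not tested. Gss ran at 9.36 to 11.1 CPM with LPS plus BHB, 11.3 to 13.8 CPM with LPS and 12.5 to 13.3 CPM in control. It was lower with LPS plus BHB than with LPS (log2 fold change −0.36, adjusted p = 0.00786) and than in control (log2 fold change −0.37, adjusted p = 0.00328; with control replicate 1 alone log2 fold change −0.33, adjusted p = 0.0791), and did not pass with LPS against control (log2 fold change −0.01, adjusted p = 0.926), where its sign differed between scalings and it passed as lower with library totals alone (log2 fold change −0.29, adjusted p = 0.0165). Gsr (chr8:33652523-33698163), the reductase that returns oxidised glutathione to its working form with NADPH, had 91.5, 97.6 and 83.9 CPM in the LPS plus BHB libraries, 69.2, 68.4 and 68.4 CPM in the LPS libraries and 61.6, 61.8 and 66.1 CPM in the control libraries. All LPS plus BHB libraries lay above the LPS libraries, and these above control. Gsr was higher with LPS plus BHB than with LPS (log2 fold change 0.41 ± 0.06, adjusted p = 3.25e-06) and than in control (log2 fold change 0.53, adjusted p = 2.37e-08; log2 fold change 0.20 with library totals alone). Against control, the LPS change of Gsr did not pass (log2 fold change 0.12, adjusted p = 0.053), though it did with DESeq2's size factors (log2 fold change 0.16, adjusted p = 0.0157), with no filter (log2 fold change 0.15, adjusted p = 0.0186) and with DESeq2 (log2 fold change 0.16, adjusted p = 0.0204). It also passed as higher among the 6 libraries compared only (log2 fold change 0.13, adjusted p = 0.0154). The same held without LPS replicate 3, without control replicate 3 and without any single LPS plus BHB library. With library totals alone it was lower (log2 fold change −0.15, adjusted p = 0.0161).

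In the thioredoxin and peroxiredoxin system 5 of the 9 genes were lower and 2 higher with LPS plus BHB than with LPS, with a median log2 fold change of −0.26. The called share was 77.8%, against 50.7% of all genes, of which 24.4% were lower and 26.4% higher. Relative to control, 5 were higher and 2 lower with LPS, but 3 were higher and 4 lower with library totals alone. The share called with LPS against control, 77.8%, was close to the 79.8% of all genes. Txnrd1 (chr10:82833951-82897712), the cytosolic reductase that passes electrons from NADPH to thioredoxin, carries an antioxidant core in a window inside the gene. Txnrd1 had 1067, 1177 and 1058 CPM in the LPS plus BHB libraries, 1489.6, 1452 and 1485 CPM in the LPS libraries and 303, 317 and 354 CPM in the control libraries. The 3 groups did not overlap, with LPS highest and control lowest. It rose 4.54-fold with LPS (log2 fold change 2.18 ± 0.06, adjusted p = 2.36e-18) and was 1.34-fold lower with LPS plus BHB than with LPS (log2 fold change −0.42 ± 0.06, adjusted p = 1.98e-06). Txn1, thioredoxin itself, ran at 205 to 228 CPM with LPS plus BHB, 199 to 206 CPM with LPS and 151 to 168 CPM in control. The change with LPS plus BHB against LPS did not pass (log2 fold change 0.08, adjusted p = 0.219). Txn1 rose with LPS (log2 fold change 0.34, adjusted p = 2.76e-06) and with LPS plus BHB against control (log2 fold change 0.41, adjusted p = 1.74e-07), but neither passed with library totals alone (log2 fold change 0.06, adjusted p = 0.23, and log2 fold change 0.09, adjusted p = 0.101).

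Srxn1 (chr2:152105516-152111376), the sulfiredoxin that restores overoxidised peroxiredoxins, was highest with LPS, as Gclc was. It had 187, 188 and 185 CPM in the LPS plus BHB libraries, 312, 287 and 316 CPM in the LPS libraries and 166, 181 and 207 CPM in the control libraries. The LPS libraries stood above those of both other groups, which overlapped. Srxn1 rose with LPS (log2 fold change 0.72 ± 0.06, adjusted p = 1.86e-08; log2 fold change 0.45 with library totals alone) and was 1.63-fold lower with LPS plus BHB than with LPS (log2 fold change −0.71 ± 0.06, adjusted p = 9.98e-08). Against control the LPS plus BHB log2 fold change was 0.02 (adjusted p = 0.825); with control replicate 1 alone it was 0.18 (adjusted p = 0.0293), and with library totals alone −0.31.

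The peroxiredoxins, which reduce peroxides with electrons from thioredoxin or, for Prdx6, glutathione, went in both directions. Prdx1, the main cytosolic form, had 1104, 1069.8 and 1141 CPM in the LPS plus BHB libraries, 1541, 1440.4 and 1659.6 CPM in the LPS libraries and 1438, 1516 and 1735 CPM in the control libraries. LPS and control overlapped, and the LPS plus BHB libraries lay below both. Prdx1 was lower with LPS plus BHB than with LPS (log2 fold change −0.49 ± 0.06, adjusted p = 3.88e-06) and than in control (log2 fold change −0.50, adjusted p = 9.71e-07). Between LPS and control Prdx1 did not pass (log2 fold change −0.01, adjusted p = 0.84), and the sign depended on the scaling and on the libraries left out. With library totals alone Prdx1 passed as lower with LPS (log2 fold change −0.29, adjusted p = 7.28e-04).

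Prdx5 (chr19:6906697-6910106), a form found in mitochondria and peroxisomes as well as the cytosol, had 865, 823 and 794 CPM in the LPS plus BHB libraries, 579, 551 and 568 CPM in the LPS libraries and 144, 158 and 137 CPM in the control libraries. Every LPS plus BHB library lay above every LPS library, and these above every control library. It rose 3.86-fold with LPS (log2 fold change 1.95 ± 0.05, adjusted p = 2.71e-18) and a further 1.46-fold with LPS plus BHB over LPS (log2 fold change 0.55 ± 0.05, adjusted p = 1.17e-08). The antisense gene Trmt112 covers 19.12% of its exonic length, at 10.3 to 11.8 CPM with LPS plus BHB, 9.37 to 11 CPM with LPS and 8.03 to 9.26 CPM in control, levels far below those of Prdx5. Per count, Prdx5 stood to Prdx1 at 0.783, 0.769 and 0.696 with LPS plus BHB, 0.375, 0.382 and 0.342 with LPS and 0.1, 0.104 and 0.0791 in control.

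Prdx2, a cytosolic form, had 38, 33.9 and 38.6 CPM in the LPS plus BHB libraries, 24.2, 25.1 and 23.8 CPM in the LPS libraries and 56.3, 63.4 and 58.1 CPM in the control libraries. Control was highest and LPS lowest without overlap. It fell with LPS (log2 fold change −1.28 ± 0.07, adjusted p = 2.81e-13) and was higher with LPS plus BHB than with LPS (log2 fold change 0.60 ± 0.07, adjusted p = 4.07e-07). Its exons overlap those of Junb on the other strand, together with Rnaseh2a over 11.48% of their length, and Junb ran at 629 to 646 CPM with LPS plus BHB, 427 to 455 CPM with LPS and 138 to 145 CPM in control. The strand setting of the counting is not given, and the part of Junb reads in Prdx2 was not tested. Of the 31-base words of Prdx2, 16.51% occur in other genes, among them Tdpx-ps1, Junb and Rnaseh2a. Prdx3, the mitochondrial form, ran at 27.8 to 30.6 CPM with LPS plus BHB, 34.4 to 35.9 CPM with LPS and 31.5 to 37.6 CPM in control. It was lower with LPS plus BHB than with LPS (log2 fold change −0.28, adjusted p = 0.00262) and than in control (log2 fold change −0.27, adjusted p = 0.00194; with control replicate 1 alone log2 fold change −0.12, adjusted p = 0.291). Prdx4, the form of the endoplasmic reticulum, fell with LPS (log2 fold change −0.83, adjusted p = 6.97e-10), with 21.1 to 22.3 CPM against 36.1 to 40.7 CPM in control, and did not pass with LPS plus BHB against LPS (log2 fold change 0.11, adjusted p = 0.228). Prdx6 was lower with LPS plus BHB than with LPS (log2 fold change −0.26, adjusted p = 3.01e-04), and higher with LPS than in control (log2 fold change 0.30, adjusted p = 2.71e-05), a call lost with library totals alone (log2 fold change 0.02, adjusted p = 0.68).

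**Figure D2:**
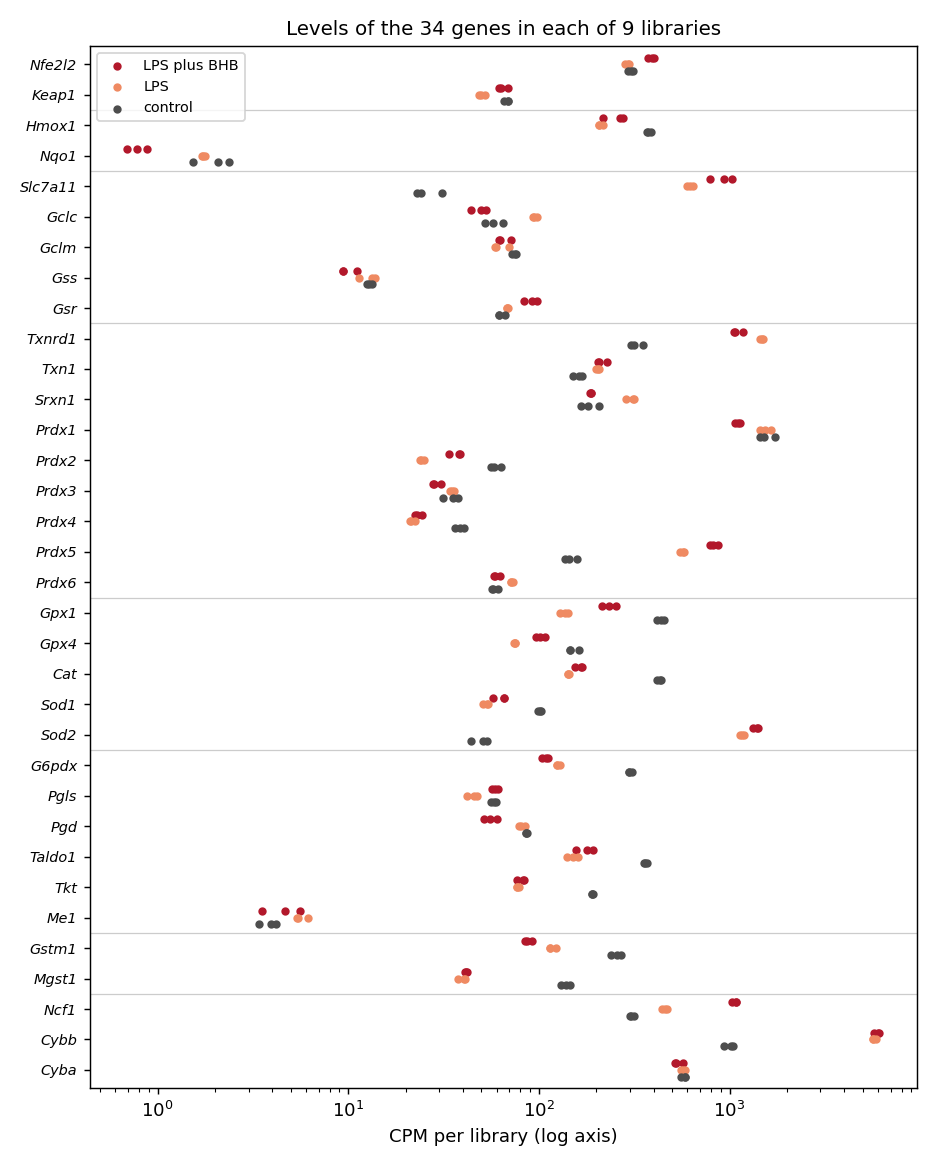
CPM of the 34 genes in each of the 9 libraries on a log axis, with LPS plus BHB above LPS and control in each row and lines between roles. Cybb is the highest gene in the treated libraries, at 5655 to 6075 CPM, Nqo1 the lowest, at 0.695 to 1.78 CPM, and Slc7a11 and Sod2 show the widest gaps between treated and control libraries.

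All 5 genes that remove superoxide or hydrogen peroxide through glutathione peroxidase, catalase or superoxide dismutase were higher with LPS plus BHB than with LPS, under all alternatives run as well, where 26.4% of all genes were higher. In each of the 5 the 2 groups did not overlap, as in 56.7% of all genes. With LPS against control 4 of the 5 were lower, where 41.4% of all genes were, and Sod2 was higher. Gpx1 (chr9:108338903-108340343), the cytosolic glutathione peroxidase, had 233, 215 and 253 CPM in the LPS plus BHB libraries, 143, 129 and 137 CPM in the LPS libraries and 417, 454 and 438 CPM in the control libraries. Control was highest and LPS lowest. Gpx1 fell 3.2-fold with LPS (log2 fold change −1.68 ± 0.06, adjusted p = 3.11e-16) and was 1.71-fold higher with LPS plus BHB than with LPS (log2 fold change 0.78 ± 0.06, adjusted p = 5.04e-10), and lower with LPS plus BHB than in control (log2 fold change −0.90, adjusted p = 6.32e-12).

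Gpx4, which reduces lipid peroxides in membranes, had 102, 96.5 and 108 CPM in the LPS plus BHB libraries, 73.8, 74.6 and 74.9 CPM in the LPS libraries and 145, 162 and 145 CPM in the control libraries. The order of the groups was that of Gpx1. Gpx4 fell with LPS (log2 fold change −1.02 ± 0.05, adjusted p = 1.89e-13) and was higher with LPS plus BHB than with LPS (log2 fold change 0.45 ± 0.05, adjusted p = 4.34e-07). Of its 31-base words 38.94% occur in other genes, among them the pseudogene Gpx4-ps2, so its level is uncertain where counting could split those reads.

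Cat, the catalase of peroxisomes, had 154, 167 and 168 CPM in the LPS plus BHB libraries, 144, 143 and 142 CPM in the LPS libraries and 434, 434 and 417 CPM in the control libraries. The treated libraries were far below control, and LPS plus BHB lay a little above LPS. Cat fell with LPS (log2 fold change −1.59 ± 0.04, adjusted p = 4.54e-18) and was 1.14-fold higher with LPS plus BHB than with LPS (log2 fold change 0.19 ± 0.04, adjusted p = 0.00117). Sod1, the cytosolic copper and zinc dismutase, ran at 57.5 to 65.8 CPM with LPS plus BHB, 50.9 to 54.1 CPM with LPS and 99.3 to 102 CPM in control. Sod1 fell with LPS (log2 fold change −0.94, adjusted p = 1.65e-12) and was higher with LPS plus BHB than with LPS (log2 fold change 0.25, adjusted p = 7.81e-04).

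Sod2 (chr17:13006846-13040063), the manganese dismutase of mitochondria and a known NF-kappa B target, had 1415, 1386 and 1322 CPM in the LPS plus BHB libraries, 1186, 1160.1 and 1129 CPM in the LPS libraries and 43.8, 53.4 and 51 CPM in the control libraries. The treated libraries stood far above control, and every LPS plus BHB library lay above every LPS library. Sod2 rose 23.4-fold with LPS (log2 fold change 4.55 ± 0.07, adjusted p = 3.23e-22) and 1.19-fold more with LPS plus BHB (log2 fold change 0.25 ± 0.06, adjusted p = 0.00101). Of the 31-base words in its exons 26.73% also occur in other genes, so its counts may hold reads that could be assigned elsewhere. The count ratio of Sod2 to Sod1 was 21.5, 24.1 and 20.2 with LPS plus BHB and 22.3, 22.8 and 20.9 with LPS, ranges that overlapped, against 0.441, 0.525 and 0.5 in control.

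In the pentose phosphate pathway summed levels in the treated libraries were well below those in control: the 6 genes of this group summed to 467 to 493 CPM with LPS plus BHB and 478 to 491 CPM with LPS, against 992 to 1015 CPM in control. With LPS against control 4 of the 6 were lower and 1 higher (83.3% called, near the 79.8% of all genes). The 1 higher was Me1, which lies outside the pathway, and with library totals alone 0 were higher and 5 lower. With LPS plus BHB against LPS 2 were higher, 2 lower and 2 did not pass (66.7% called, against 50.7% of all genes).

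G6pdx (chrX:74409483-74429194), glucose-6-phosphate dehydrogenase, commits glucose to the pathway and makes its first NADPH. It had 109, 111 and 104 CPM in the LPS plus BHB libraries, 129, 124 and 125 CPM in the LPS libraries and 298, 299 and 308 CPM in the control libraries. The 3 groups did not overlap, and the LPS plus BHB libraries were the lowest. G6pdx fell 2.4-fold with LPS (log2 fold change −1.26 ± 0.04, adjusted p = 1.48e-16) and was lower still with LPS plus BHB (log2 fold change −0.22 ± 0.04, adjusted p = 2.67e-04). Its exons overlap those of Ikbkg on the other strand over 13.57% of their length, and Ikbkg ran at 127 to 136 CPM with LPS plus BHB, 138 to 147 CPM with LPS and 85.7 to 89.2 CPM in control, in the opposite direction against control.

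Pgls, the lactonase of the next step, overlaps Fam129c on the same strand over 20.58% of its exonic length. Fam129c ran at 6.95 to 8.54 CPM with LPS plus BHB, 4.14 to 6.17 CPM with LPS and 6.4 to 7.71 CPM in control. The part of Fam129c reads in Pgls was not tested. Pgls ran at 57 to 60.9 CPM with LPS plus BHB, 42.2 to 47.4 CPM with LPS and 56.3 to 59.7 CPM in control. It fell with LPS (log2 fold change −0.37, adjusted p = 6.29e-06), was higher with LPS plus BHB than with LPS (log2 fold change 0.39, adjusted p = 9.18e-06) and did not pass against control with LPS plus BHB (log2 fold change 0.02, adjusted p = 0.735; log2 fold change −0.30 with library totals alone). Pgd, 6-phosphogluconate dehydrogenase, makes the second NADPH and had 55.5, 60.3 and 51.8 CPM in the LPS plus BHB libraries, 80.9, 84.7 and 78.7 CPM in the LPS libraries and 86, 86.1 and 85.8 CPM in the control libraries. The LPS plus BHB libraries were the lowest without overlap. Pgd was 1.46-fold lower with LPS plus BHB than with LPS (log2 fold change −0.54 ± 0.06, adjusted p = 5.86e-08), and with LPS against control it did not pass (log2 fold change −0.08, adjusted p = 0.191) although the 2 ranges did not overlap; with library totals alone it did (log2 fold change −0.35, adjusted p = 4.23e-06).

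Taldo1 and Tkt, the enzymes of the non-oxidative branch in this group of genes, both fell with LPS. The branch as a whole was not tested. Taldo1, transaldolase, had 179, 156 and 192 CPM in the LPS plus BHB libraries, 151, 140.3 and 159.6 CPM in the LPS libraries and 354, 359.6 and 368 CPM in the control libraries. Control was highest, and the treated groups overlapped. Taldo1 fell with LPS (log2 fold change −1.26 ± 0.06, adjusted p = 4.66e-12) and was higher with LPS plus BHB than with LPS (log2 fold change 0.23, adjusted p = 0.00688). Tkt, transketolase, ran at 77 to 83.3 CPM with LPS plus BHB, 76.8 to 78.4 CPM with LPS and 189 to 192 CPM in control. It fell with LPS (log2 fold change −1.30, adjusted p = 1.75e-16) and did not pass with LPS plus BHB against LPS (log2 fold change 0.06, adjusted p = 0.267, 95% interval −0.03 to 0.16). Me1, the cytosolic malic enzyme that makes NADPH outside the pathway, had 164, 134 and 100 counts with LPS plus BHB, 187, 155 and 152 with LPS and 149, 127 and 142 in control. It was higher with LPS than in control (log2 fold change 0.56, adjusted p = 0.00634), which was lost with library totals alone (log2 fold change 0.29, adjusted p = 0.14) and with control replicate 1 alone (log2 fold change 0.44, adjusted p = 0.144), and it did not pass with LPS plus BHB against LPS (log2 fold change −0.30, adjusted p = 0.163). That value was −0.47 (adjusted p = 0.0502) without LPS plus BHB replicate 1 and −0.15 (adjusted p = 0.533) without its replicate 3 on the log2 scale. Against control, Me1 with LPS plus BHB did not pass (log2 fold change 0.26, adjusted p = 0.19), and passed without LPS plus BHB replicate 3 (log2 fold change 0.42, adjusted p = 0.0353). In Me1 36.89% of the 31-base words occur in other genes.

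Both glutathione transferases, which conjugate glutathione to reactive compounds, fell with LPS. Gstm1 ran at 84.3 to 91.9 CPM with LPS plus BHB, 114 to 123 CPM with LPS and 239 to 269 CPM in control. It fell with LPS (log2 fold change −1.12 ± 0.05, adjusted p = 2.10e-14) and was lower again with LPS plus BHB than with LPS (log2 fold change −0.42 ± 0.05, adjusted p = 1.01e-06). Its paralogs Gstm2 and Gstm3 are among the genes that share 28.78% of its 31-base words. Mgst1, the microsomal transferase, ran at 41.1 to 42.2 CPM with LPS plus BHB, 37.6 to 40.9 CPM with LPS and 131 to 145 CPM in control. Mgst1 fell with LPS (log2 fold change −1.80 ± 0.05, adjusted p = 1.64e-17) and did not pass with LPS plus BHB against LPS (log2 fold change 0.07, adjusted p = 0.338).

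The NADPH oxidase subunits differed among themselves. Ncf1 (chr5:134220053-134229625), which encodes p47phox, the organizer that moves to the membrane when the oxidase is switched on, had 1077, 1076 and 1029 CPM in the LPS plus BHB libraries, 458, 472 and 444 CPM in the LPS libraries and 299.7, 316 and 305 CPM in the control libraries. The 3 groups were far apart. Ncf1 rose 2.32-fold with LPS plus BHB over LPS (log2 fold change 1.21 ± 0.04, adjusted p = 5.91e-15), the largest rise of the 34 genes in that comparison. It was also higher with LPS than in control (log2 fold change 0.58 ± 0.04, adjusted p = 9.89e-11; log2 fold change 0.30 with library totals alone). The antisense gene Gtf2ird2 covers 11.14% of its exonic length and ran at 4.48 to 6.65 CPM with LPS plus BHB, 8.67 to 10.1 CPM with LPS and 8.97 to 10.02 CPM in control.

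Cybb (chrX:9435252-9487771), the catalytic gp91phox subunit, had 5731, 5993 and 6075 CPM in the LPS plus BHB libraries, 5689.6, 5655 and 5839 CPM in the LPS libraries and 941, 1039 and 1022 CPM in the control libraries. The treated groups overlapped, well above control. Cybb rose 5.72-fold with LPS (log2 fold change 2.52 ± 0.05, adjusted p = 5.00e-20), and with LPS plus BHB against LPS the log2 fold change was 0.05 (adjusted p = 0.426), with a 95% interval of −0.05 to 0.16. Cyba, the p22phox partner that stabilises Cybb in the membrane, had 567, 516 and 527 CPM in the LPS plus BHB libraries, 584, 558 and 569 CPM in the LPS libraries and 582, 586 and 558 CPM in the control libraries. All 3 groups lay in 1 narrow band. Cyba did not pass with LPS plus BHB against LPS (log2 fold change −0.09, adjusted p = 0.111, 95% interval −0.18 to 0.01) or with LPS against control (log2 fold change −0.01, adjusted p = 0.814). Without LPS plus BHB replicate 1 it passed against LPS (log2 fold change −0.13, adjusted p = 0.0267), and with library totals alone it passed in both comparisons (log2 fold change −0.14, adjusted p = 0.0116, and log2 fold change −0.29, adjusted p = 5.83e-06). Cyba just passed with LPS plus BHB against control (log2 fold change −0.10, adjusted p = 0.048), and did not with DESeq2's size factors (log2 fold change −0.08, adjusted p = 0.132), with control replicate 1 alone (log2 fold change −0.11, adjusted p = 0.138), with no filter, with DESeq2, among the 6 libraries compared only, or in 7 of the 9 fits that left out 1 library. With library totals alone it was −0.43 on the log2 scale (adjusted p = 2.34e-08).

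Ratios of counts within a library do not depend on the scaling between libraries. Ncf1 stood to Cyba at 1.9, 2.09 and 1.95 with LPS plus BHB, 0.784, 0.846 and 0.78 with LPS and 0.515, 0.539 and 0.545 in control. Ncf1 stood to Cybb at 0.188, 0.18 and 0.169 with LPS plus BHB, 0.0805, 0.0835 and 0.0761 with LPS and 0.319, 0.304 and 0.298 in control, so that the LPS libraries were lowest in this ratio. Slc7a11 stood to Gclc at 18.7, 19.5 and 17.9 with LPS plus BHB, 6.71, 6.12 and 6.8 with LPS and 0.44, 0.42 and 0.474 in control. Gsr stood to G6pdx, a user and a maker of NADPH, at 0.839, 0.876 and 0.807 with LPS plus BHB, 0.537, 0.553 and 0.548 with LPS and 0.206, 0.207 and 0.214 in control. In these 4 ratios the 3 groups did not overlap. The pairs were chosen after their values were seen and were not tested, and a count ratio of 2 genes also reflects their lengths.

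**Figure D3:**
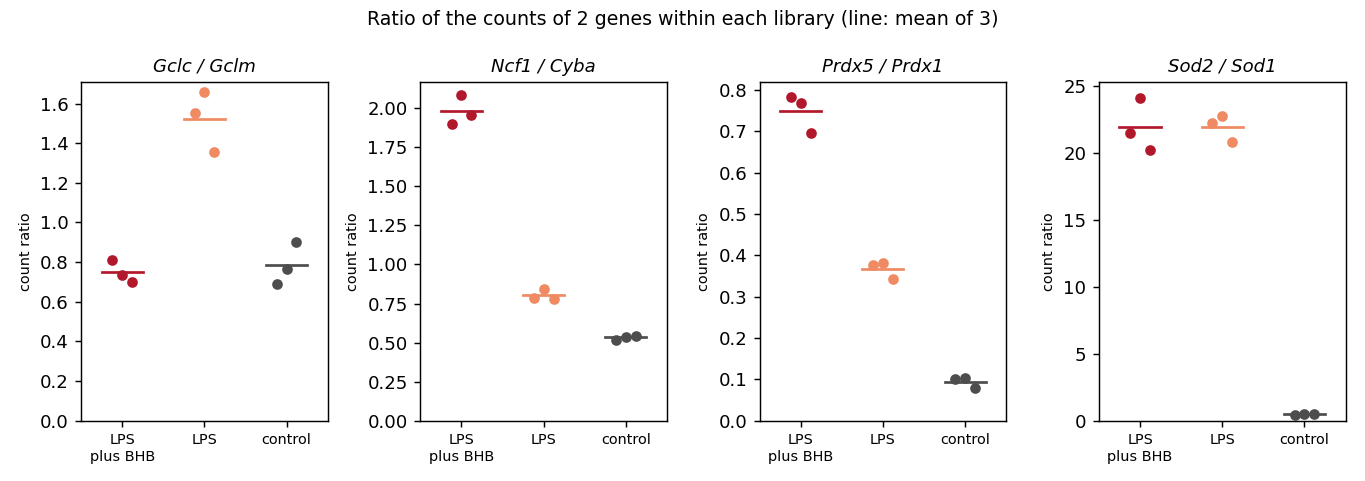
Ratio of the counts of 2 genes within each library (points, 3 per group) with the mean of each group (line), on linear axes from 0. Gclc over Gclm is 1.36 to 1.66 with LPS and at most 0.9 in the other libraries, Ncf1 over Cyba and Prdx5 over Prdx1 are highest with LPS plus BHB, and Sod2 over Sod1 is alike in the treated groups.

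Per kilobase of merged exons, which allows genes to be set beside each other within a group, Cybb was the highest with LPS plus BHB (1022 ± 30.9 CPM per kb, SD, n = 3) and with LPS (986 ± 16.8), and only the sixth in control (172 ± 9.06), where Cyba was the highest (554 ± 14.3). In control the gap between Cyba and Prdx1 (514 ± 50.5) was smaller than the SD of Prdx1. Prdx5 stood at 387 ± 16.6 CPM per kb with LPS plus BHB, 265 ± 6.67 with LPS and 68.5 ± 5 in control, and Gpx1 at 162 ± 13.1, 94.7 ± 4.66 and 303 ± 12.8 in the same groups. Nqo1, Me1 and Gss were the lowest in both treated groups. The 34 genes together summed to 15360 to 15728 CPM with LPS plus BHB, 14329 to 14868 CPM with LPS and 7696 to 8204 CPM in control. The 3 oxidase subunits alone summed to 7376 to 7631, 6685 to 6853 and 1822 to 1941 CPM in the same groups. These sums are relative to the TMM-scaled totals and are not shares of the counts in a library. The TMM factors were 0.913 to 0.921 with LPS plus BHB, 0.945 to 0.955 with LPS and 1.14 to 1.15 in control.

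Further genes of the same pathways, taken from lists of pathway members, were read beside the 34. With library totals alone, the NRF2 targets, glutathione and NADPH lists had 17, 19 and 14 genes lower and 3, 4 and 4 higher with LPS against control, and in none of the 6 lists did the larger direction turn there. Of the partners, competitors and degraders of NRF2, 13 were tested. With LPS plus BHB against LPS 5 were higher and 4 lower (69.2% called, against 50.7% of all genes), or 3 higher and 4 lower with library totals alone, and with LPS against control 9 were higher and 4 lower (100% called, against 79.8%). Mafk, a small MAF partner, had 38.5, 38.9 and 32 CPM with LPS plus BHB and 72.3, 70.8 and 79.5 CPM with LPS (log2 fold change −1.02 ± 0.07, adjusted p = 1.32e-10). Bach1, a repressor that competes with NRF2 for its sites, ran at 34.5 to 38.1 CPM with LPS plus BHB, 51.2 to 53.3 CPM with LPS and 253 to 266 CPM in control, lower with LPS than in control (log2 fold change −2.29, adjusted p = 5.60e-20) and lower again with LPS plus BHB (log2 fold change −0.54, adjusted p = 1.91e-08). Its relative Bach2 was low throughout, at 6.88 to 8.33 CPM with LPS plus BHB, 0.389 to 1.01 CPM with LPS and 2.62 to 2.87 CPM in control, and higher with LPS plus BHB than with LPS (log2 fold change 3.51, adjusted p = 3.30e-10). Sqstm1, the autophagy receptor p62 that can sequester KEAP1, had 6926, 6741 and 5902 CPM in the LPS plus BHB libraries, 10072, 9913 and 9724 CPM in the LPS libraries and 551, 635 and 617 CPM in the control libraries. It rose 16.5-fold with LPS (log2 fold change 4.04 ± 0.07, adjusted p = 3.48e-21). Nfe2l1, a relative of NRF2, and Maff rose with LPS as well (log2 fold changes 2.85 and 6.04, adjusted p = 7.30e-21 and 1.83e-20).

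Of 20 other NRF2 target genes tested, 3 were higher and 14 lower with LPS than in control (85% called, against 79.8% of all genes), with a median log2 fold change of −0.94 against −0.06 over all genes. Between LPS plus BHB and LPS 9 were higher and 3 lower in LPS plus BHB (60% called, against 50.7%), with a median of 0.15. Fth1, the ferritin heavy chain that stores iron, had 22051, 20476 and 21079.9 CPM with LPS plus BHB and 12621, 12282 and 12627 CPM with LPS (log2 fold change 0.76 ± 0.05, adjusted p = 8.36e-11), and Abcc4, an efflux pump, 52.6, 55.4 and 58 CPM and 20.1, 18.2 and 16.7 CPM in the same groups (log2 fold change 1.59 ± 0.07, adjusted p = 3.53e-13). Osgin1 was lower with LPS plus BHB (log2 fold change −1.45, adjusted p = 3.04e-10). With LPS against control Nqo2, a quinone reductase, and Blvra, a biliverdin reductase, fell (log2 fold change −3.62, adjusted p = 1.55e-17, and log2 fold change −2.42, adjusted p = 6.84e-18), and the transporter Abcc1 rose (log2 fold change 1.55, adjusted p = 1.02e-17).

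Among 26 other glutathione enzymes 4 were higher and 16 lower with LPS than in control (76.9% called, against 79.8% of all genes), and 3 were higher and 5 lower with LPS plus BHB than with LPS, a called share of 30.8% that is below the 50.7% of all genes. Slc3a2, the heavy chain that pairs with Slc7a11, had 1368, 1329 and 1181 CPM in the LPS plus BHB libraries, 1779, 1801 and 1769 CPM in the LPS libraries and 338, 361 and 348 CPM in the control libraries. It rose with LPS (log2 fold change 2.35 ± 0.06, adjusted p = 2.64e-19) and was lower with LPS plus BHB than with LPS (log2 fold change −0.46 ± 0.05, adjusted p = 2.42e-07), where Slc7a11 was higher. Glrx, a glutaredoxin, was higher with LPS plus BHB than with LPS, at 40.4 to 57 CPM against 10.3 to 13.7 CPM (log2 fold change 1.92, adjusted p = 3.03e-07), and Gsto1, an omega-class transferase, lower (log2 fold change −0.50, adjusted p = 6.45e-08). The secreted peroxidase Gpx3 and the microsomal transferase Mgst3 fell with LPS (log2 fold change −2.51, adjusted p = 1.04e-17, and log2 fold change −1.71, adjusted p = 6.32e-12).

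Of 22 other thioredoxin and methionine sulfoxide reductase genes, 4 were higher and 10 lower with LPS plus BHB than with LPS (63.6% called, against 50.7% of all genes), and 8 were higher and 11 lower with LPS than in control (86.4% called, against 79.8%). Txnip, which binds and inhibits thioredoxin, had 184, 177 and 219.6 CPM with LPS plus BHB and 72.1, 72.8 and 72 CPM with LPS (log2 fold change 1.42 ± 0.10, adjusted p = 1.54e-06). Txnrd3 was lower with LPS plus BHB (log2 fold change −1.76, adjusted p = 1.14e-09), as Txnrd1 was, and Msrb1, which repairs oxidised methionine, was higher (log2 fold change 0.60, adjusted p = 1.67e-06). The sestrins parted with LPS: Sesn1 fell and Sesn2 rose (log2 fold change −4.41, adjusted p = 2.45e-21, and log2 fold change 3.27, adjusted p = 2.67e-21), and Txnl1 rose (log2 fold change 2.45, adjusted p = 4.06e-20).

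Of 20 other genes of the pentose phosphate pathway and NADPH supply, 8 were higher and 7 lower with LPS plus BHB than with LPS (7 and 7 with library totals alone; 75% called, against 50.7% of all genes), and 5 were higher and 13 lower with LPS than in control (90% called, against 79.8%). H6pd, which runs the first pathway steps in the endoplasmic reticulum, had 22.2, 24.5 and 31 CPM in the LPS plus BHB libraries, 5.05, 4.69 and 5.69 CPM in the LPS libraries and 41.1, 44.2 and 42.4 CPM in the control libraries. It fell with LPS (log2 fold change −3.05, adjusted p = 7.46e-15) and was 5.03-fold higher with LPS plus BHB than with LPS (log2 fold change 2.33 ± 0.12, adjusted p = 6.48e-12), in contrast to G6pdx. Pgm2 was higher with LPS plus BHB as well (log2 fold change 1.82, adjusted p = 3.50e-15). Idh1, the cytosolic isocitrate dehydrogenase that makes NADPH, had 39.9, 41 and 44.4 CPM in the LPS plus BHB libraries, 26.9, 27.2 and 27.1 CPM in the LPS libraries and 409, 415 and 401 CPM in the control libraries. It fell 15.1-fold with LPS (log2 fold change −3.92 ± 0.05, adjusted p = 6.41e-23) and was higher with LPS plus BHB than with LPS (log2 fold change 0.63, adjusted p = 2.62e-09). Its mitochondrial counterpart Idh2 fell with LPS too (log2 fold change −1.62, adjusted p = 1.97e-15). Aldh1l2, a mitochondrial enzyme of folate metabolism, rose with LPS (log2 fold change 7.19, adjusted p = 3.24e-16), at 19.1 to 21.6 CPM against 0.0282 to 0.248 CPM in control, where it had 1, 5 and 9 counts and the size of the fold is uncertain.

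Of 7 other NADPH oxidase genes tested, 3 were higher and 1 lower with LPS plus BHB than with LPS (57.1% called, against 50.7% of all genes). With LPS against control 2 were higher and 5 lower (100% called, against 79.8% of all genes), with a median log2 fold change of −0.25. Noxo1, an organizer related to Ncf1, was low, at 5.36 to 5.75 CPM with LPS plus BHB and 1.33 to 1.73 CPM with LPS (log2 fold change 1.82, adjusted p = 1.40e-07). Rac2, the GTPase that activates the complex, was lower with LPS plus BHB (log2 fold change −0.27, adjusted p = 1.23e-04). Hvcn1, the proton channel that balances the charge of superoxide production, rose with LPS by 2.82-fold (adjusted p = 2.07e-14), and Rac1 fell (log2 fold change −0.65, adjusted p = 5.04e-12). Nox3, Nox4 and Noxa1 had no count in any library.

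With LPS plus BHB against control, 8 of the 13 genes around NRF2 were higher and 4 lower, and of the other NRF2 targets 6 were higher and 13 lower. The same counts were 5 and 15 of 26 for the other glutathione enzymes, 7 and 12 of 22 for the thioredoxin and methionine sulfoxide reductase genes, 7 and 13 of 20 for the NADPH genes, and 3 and 3 of 7 for the oxidase genes. Of all genes 38.0% were higher and 40.4% lower in this comparison, 78.4% in all, which the called shares of the glutathione enzymes (76.9%), the thioredoxin genes (86.4%) and the oxidase genes (85.7%) lay near. Among these genes, Bach1 and Idh1 were lower (log2 fold change −2.83, adjusted p = 4.05e-21, and log2 fold change −3.29, adjusted p = 3.37e-22), Slc3a2 was higher (log2 fold change 1.89, adjusted p = 8.23e-18), and Ncf4, the p40phox subunit, was higher (log2 fold change 0.65, adjusted p = 7.30e-12; log2 fold change 0.32 with library totals alone). Nnt, which makes NADPH in mitochondria from the proton gradient, was lower (log2 fold change −1.75, adjusted p = 2.20e-14).

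**Figure D4:**
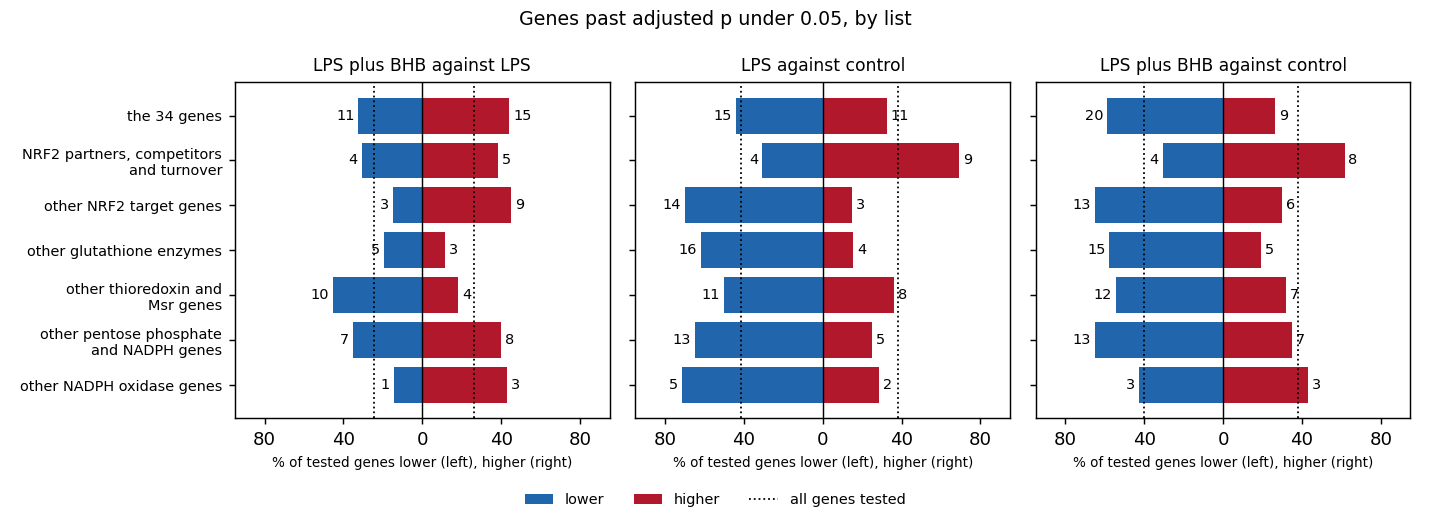
Share of the tested genes of each list that were lower (left of 0) or higher (right of 0) at an adjusted p under 0.05 in each comparison, with the number of genes at each bar and dotted lines at the share over all genes tested. With LPS plus BHB against LPS the 34 genes stand at 15 higher and 11 lower, and with LPS against control the other NRF2 targets stand at 3 higher and 14 lower.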

How the data were processed

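RNA from 9 libraries of macrophages was measured by sequencing. The authors deposited raw counts per gene symbol, 46095 symbols in 9 columns matched to libraries by their titles, with no replicates pooled. Per the submitters' processing notes, HISAT2 and the build mm10 were used. Strandedness, gene models, counter and aligner version were not given in the sources used here, and overlapping or antisense genes and near-identical copies cannot be told apart. Trizol extraction and standard Illumina library methods are given per the labels' protocols.

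A filterByExpr filter (minimum count 10) kept 14026 symbols. A quasi-likelihood model in edgeR 4.0.16 (R 4.3.3) with TMM scaling took the group as its single term and used all 9 libraries, which left 6 residual degrees of freedom. Its biological coefficient of variation was 6.72%. Two-sided p-values were adjusted by Benjamini-Hochberg over all 14026 genes and called at 0.05. Each SE was obtained from the log2 fold change and the F statistic (the change over the root of F) and is approximate, above all at few counts. Total counts of 29633411 to 32798920 set the precision, and intervals are 95%.

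The members and all lists were chosen with earlier results of these data known. All 34 members are named, and of each other list the 3 tested genes with the smallest p in each comparison. A single gene so selected is not reported here. A gene so selected in several comparisons has its values given for at least 1 of them. Shared libraries link the comparisons. Chi-square per degree of freedom between replicates was 3.10 to 10.4, above sampling noise, so none were merged. Alternatives were DESeq2's size factors within edgeR, library totals alone, no filter, DESeq2 1.42.0, a replicate block, the 6 libraries compared only, control replicate 1 as the only control, and each library left out in turn. The fitting code was tested on simulated data. Coordinates and exonic overlaps are from the GENCODE annotation of GRCm38, the build that mm10 names, and promoter windows from RefSeq GRCm38.p6.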

Additional observations from a re-analysis of the deposited data

How the results depend on the processing

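The counts of called members stayed within 1.5 times under all alternatives. Leaving out each library in turn, members called higher and lower ranged from 15 to 15 and 11 to 12 with LPS plus BHB against LPS, from 11 to 12 and 15 to 15 with LPS against control, and from 9 to 10 and 18 to 20 with LPS plus BHB against control. All genes called ranged from 6509 to 7071, 10924 to 11535 and 10666 to 11188 in the same order. Deviations from the group means were little correlated between libraries of different groups. The correlations were −0.0166 to 0.0392 for libraries with the same number and −0.0379 to 0.043 for different numbers. Between LPS plus BHB and LPS, same-numbered libraries were at 0.0138 to 0.0392, above all those with different numbers, at −0.0379 to 0.0077. With the replicate number as a block, all genes called were 7010, 11136 and 10908 against 7115, 11191 and 10990 without it, and members called were 15 and 11, 11 and 15, and 9 and 20, so that the block changed no member count.

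Signs turned only for changes that had not passed the test in the main fit, but with library totals alone some of them passed in the other direction. In LPS plus BHB against LPS, Cybb was at −0.0005 with library totals alone, and Gclm ranged from −0.0127 to 0.1326 over the fits that left out 1 library. In LPS against control, DESeq2's size factors, no filter and DESeq2 gave 0.023, 0.0154 and 0.023 for Gss, 0.0189, 0.0114 and 0.0189 for Prdx1, and 0.0217, 0.014 and 0.0217 for Cyba. Library totals alone gave −0.1531 for Gsr (adjusted p = 0.0161) and −0.2611 for Prdx3 (adjusted p = 0.00188), both passing as lower. Control replicate 1 as the only control gave 0.0018 for Nfe2l2, 0.036 for Gss and 0.1103 for Prdx1. Leaving out 1 library gave −0.0588 to 0.0937 for Gss, −0.0721 to 0.0668 for Prdx1, −0.0544 to 0.0699 for Prdx3 and −0.033 to 0.0154 for Cyba. In LPS plus BHB against control, library totals alone gave −0.3096 for Srxn1 (adjusted p = 4.43e-04), −0.2887 for Prdx6 (adjusted p = 4.83e-05) and −0.3040 for Pgls (adjusted p = 5.35e-05), which passed as lower. Me1 was at −0.0689 there and did not pass (adjusted p = 0.727), and control replicate 1 as the only control gave −0.012 for Pgls. Leaving out 1 library gave −0.0564 to 0.1068 for Srxn1 and −0.0009 to 0.054 for Pgls. The cause was not tested. Depth limits Nqo1 and Me1, which had at most 86 and 187 counts.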
